A study of Homo sapiens with 24 samples.

Results

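The m6A peaks of 10 imprinted growth gene transcripts were followed across 6 cell populations of human pancreatic differentiation. The transcripts were IGF2, DLK1, PEG10, PEG3, MEST and PLAGL1, known to be expressed from the paternal allele, H19, MEG3 and CDKN1C, known to be expressed from the maternal allele, and GRB10, whose expressed allele depends on the isoform and tissue. A peak belonged to a transcript when the gene field of the deposited list held its GENCODE identifier. This gave 105 of the 228472 peaks in the 6 lists, and 9 of the 10 genes had at least 1 peak. All populations came from MEL1, a human embryonic stem cell line that carries GFP in 1 copy of the insulin gene. In the first batch, undifferentiated cells kept on CF1 feeder cells (hPSC) were taken through definitive endoderm (DE) and pancreatic progenitors (PP) to human islet-like organoids (hILO), and m6A-seq was run on mRNA with a SYSY antibody. In the second batch, progenitors from unedited cells (WT PP) and from cells that lack ALKBH5, a demethylase of m6A (A5-KO PP) were profiled from total RNA with a Millipore antibody, another library kit and rRNA depletion of the input. The A5-KO line was 1 clone with CRISPR-Cpf1 indels in the first exon of ALKBH5. Per population 2 IP and 2 input libraries were made (24 libraries over all), and peaks were called once on the 4 of them, so the values below have no replicate spread and no test was made. Between the batches, biology and protocol cannot be told apart.

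Imprinted genes are read from only 1 of the parental copies in most tissues. Many of them set the pace of fetal growth: IGF2 is a secreted growth factor, and GRB10 and CDKN1C act as brakes on growth. m6A is a methyl mark on adenosine inside mRNA that is often placed near the stop codon and in the 3′UTR within the motif DRACH, where D stands for any base but C, R for a purine and H for any base but G. It is removed by demethylases such as ALKBH5. In m6A-seq, RNA fragments are precipitated with an antibody against m6A (IP) and sequenced beside the fragments before precipitation (input), and a peak is a stretch where IP exceeds input.

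Stretches of 29 bases of GRCh38 are shown in the direction of the transcript, to let the marked places be compared by eye. For GRB10, PEG10, PLAGL1 and IGF2 they come from the site of that gene found in the most lists, and for PEG10, IGF2, CDKN1C, MEST, MEG3 and DLK1 from the most IP-rich peak. Other PEG10 sites of 5 lists are not shown. Capitals mark the GGAC site nearest the middle of the part of the site that the most lists covered, or of the most IP-rich peak, and a DRACH site where no GGAC was present there. GGAC fits DRACH only where the next base is not G, and in the PEG10 stretch at the start of the CDS and in that of CDKN1C the next base is g, so the letters in capitals there are not part of a DRACH site.
GRB10, 3′UTR, chr7:50592778-50592806, minus strand, 6 lists: gactagtttgttGGACttaaacgacgatt
PEG10, 3′UTR, chr7:94668061-94668089, plus strand, 6 lists: gcatgtgcacacGGACatttgccaccact
PEG10, start of the CDS, chr7:94663562-94663590, plus strand, 5 lists: cgaacgaagaagGGACgagctctctgaag
PLAGL1, CDS, chr6:143942254-143942282, minus strand, 4 lists: cacaggatgcaaGGACttcctgtgccagt
IGF2, 3′UTR near the stop codon, chr11:2132607-2132635, minus strand, 4 lists: ttggctttttagAAACAccccacaaaagc
IGF2, 3′UTR, chr11:2131717-2131745, minus strand, 2 lists: gcacacacacgcGAACAcagcacacacga
CDKN1C, 5′UTR, chr11:2885667-2885695, minus strand, 1 list: cggctgccgtccGGACgagacaggcgaac
MEST, 3′UTR, chr7:130505378-130505406, plus strand, 1 list: ttttaacactttGGACttctctgaaatat
MEG3, noncoding exon, chr14:100860274-100860302, plus strand, 1 list: aggaggaggaagAGACCgagttttaggaa
DLK1, 3′UTR, chr14:100737179-100737207, plus strand, 1 list: caccccaatctcTGACAaccgccccaagt
The number of lists counts the populations with a peak over the capitals. The stretches of GRB10, PEG10, PLAGL1 and the first of IGF2 were thus covered in populations of both batches, while those of CDKN1C, MEST, MEG3 and DLK1 were each covered in a single population.

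The lists differed in depth and in kind. Reads inside peaks numbered 30723097 to 79822815 for IP and 6987612 to 28463998 for input, so levels are given as reads in the peaks of a gene per 1000000 reads in all peaks of the same list (RPM, for IP and input separately). A level of this kind counts called stretches only, and in bulk samples fewer cells of a type and less RNA per cell cannot be told apart. Peaks without any input read made up at most 0.183% of the first-batch lists, 11.5% of WT PP and 24.6% of A5-KO PP. The stage markers were checked against the labels: all 4 pluripotency markers had a peak in hPSC, 5 of 5 endoderm markers in DE, 5 of 6 progenitor markers in PP and 6 of 6 in WT PP and A5-KO PP, and 5 of 6 islet markers in hILO. All 4 pluripotency markers had a peak in DE too, where their summed input level was 385 RPM against 1121 in hPSC and that of POU5F1 was the higher, at 57.7 against 1.38. Likewise 5 of 6 progenitor markers had a peak in hILO, at a summed input level of 741 RPM against 2210 in PP. ALKBH5 held 289 input reads in its peaks in WT PP against 1 in A5-KO PP, and its IP reads numbered 836 and 592. As RPM the input level was 15.2 against 0.0786 and the IP level 13.9 against 15.3, so only the input was lower in A5-KO PP. Indels need not remove a transcript, and why the input was lower was not tested, so these reads are a weak check of the label.

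The number of imprinted growth genes with a peak was 2 of 10 in hPSC, 3 in DE and 4 in PP, and then 6 in both WT PP and hILO, and 8 in A5-KO PP. Among 38912 coding and lncRNA genes of the annotation, 37.6% had a peak in hPSC, 35.7% did in DE, 31.9% did in PP and 35.6% did in hILO, against 39.4% in the WT PP list and 51.5% in the A5-KO PP list. PEG10 and GRB10 had peaks in all 6 lists. IGF2 had peaks in every list except hPSC, and PLAGL1 in PP, hILO, WT PP and A5-KO PP. MEG3 was marked in hILO, WT PP and A5-KO PP, and DLK1 in WT PP and A5-KO PP. CDKN1C had its single peak in hILO, and PEG3 and MEST had theirs in A5-KO PP. H19 had no peak in any list. A gene without a peak may be unexpressed or expressed without a called peak, because the lists hold peaks only. The lists hold peaks up to an adjusted p of 0.05, and some of these marks were weak. With a peak caller p below 1e-05, MEST lost its peak, and so did DLK1 in A5-KO PP and GRB10 in PP.

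**Figure D1:**
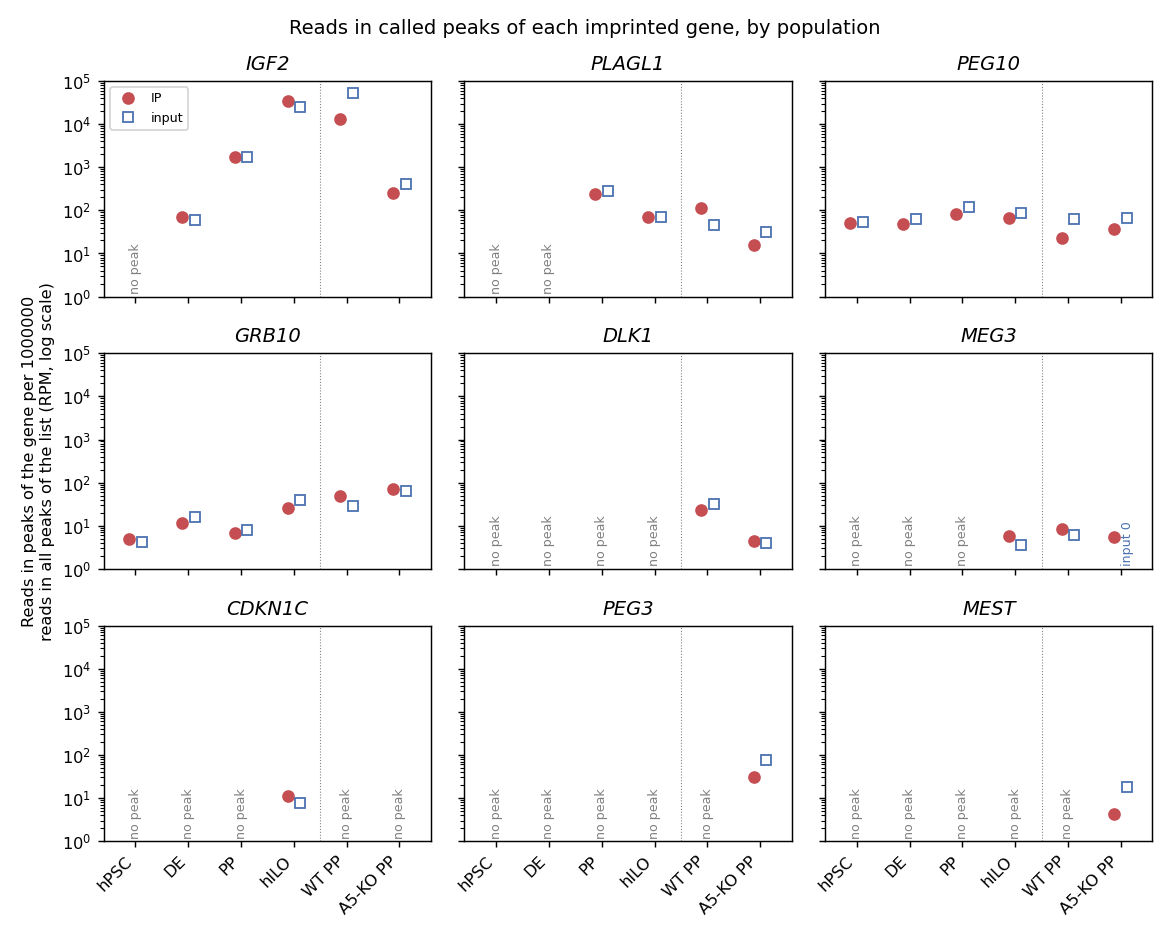
Reads in the called peaks of each gene as RPM (log axis), for IP (filled circles) and input (open squares), with the 6 populations on the x axis and a dotted line between the batches. IGF2 ranged from no peak in hPSC to 34257 IP RPM in hILO, while PEG10 stayed between 23.3 and 80.4.

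IGF2 encodes insulin-like growth factor 2, a fetal growth factor, and gave by far the widest range of levels. Its IP level was 68.6 RPM in DE, 1728 RPM in PP and 34257 RPM in hILO, and 13133 in WT PP against 259 in A5-KO PP. Its input level was 58.6 RPM in DE, 1756 RPM in PP and 25104 RPM in hILO, and 51512 in WT PP against 405 in A5-KO PP. Thus both levels were higher at each later stage of the first batch, and both were lower in A5-KO PP than in WT PP. By IP reads in peaks IGF2 ranked 2 among 15325 genes with a peak in hILO, 2 among 17025 in WT PP and 38 among 13751 in PP, against 852 among 22161 in A5-KO PP and 4175 among 15419 in DE. The gene fields of all IGF2 peaks also named INS-IGF2 and other genes, which were left out of the ranking. Which of these overlapping genes the reads came from was not tested. The covered length also differed, with 675 nt in DE, 350 nt in PP and 2475 nt in hILO, against 2122 nt in WT PP and 425 nt in A5-KO PP. As RPM per kb of covered exon, the IGF2 input level was 86.9 at the DE stage, 5017 at the PP stage and 10143 in hILO, and 24275 in WT PP against 953 in A5-KO PP. The ratio of A5-KO PP to WT PP on this scale was 0.0392 for input and 0.0985 for IP. Progenitors of the first batch, with 5017, lay between the WT PP and A5-KO PP values, so the 2 lists of unedited progenitors differed in IGF2 as well.

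Markers of the liver, a neighbouring endoderm lineage and a site of fetal IGF2 expression, were read beside IGF2. The summed input level of AFP, ALB, APOA1 and TTR was 1594 RPM in hILO, 824 in WT PP, 45 in DE and 26.6 in A5-KO PP, and it was 0 in hPSC and PP. All 4 markers had a peak in hILO, 3 did in WT PP and 2 did in A5-KO PP. In WT PP nearly all of the sum was TTR, which pancreatic endocrine cells also express, with 823 RPM against 19.7 in A5-KO PP, and ALB had no peak in either. AFP had 0 input RPM in WT PP against 6.92 in A5-KO PP, and the PP list held IGF2 at 1756 input RPM with no peak of any of the 4 markers. Mesenchymal markers did not follow IGF2, with summed input levels of 536 in PP, 104 in hILO, and 21.7 in WT PP against 146 in A5-KO PP. The part of other cell types in the IGF2 levels was not tested.

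By their midpoints all IGF2 peaks lay outside the coding sequence, with 12 in the 3′UTR and 9 in the 5′UTR. The IGF2 peak with the most reads in any list was a 900 nt stretch of the 3′UTR in hILO (chr11:2131287-2132186). It had 2114852 IP and 472429 input reads and a log2 enrichment of 2.18. Per kb a 50 nt 5′UTR peak of WT PP held more, with 3899020 IP reads against 2349836. The 900 nt stretch holds the GAACA site shown above. DE had its only IGF2 peak within the same stretch (chr11:2131412-2132086), with 2109 IP and 739 input reads and a log2 enrichment of 1.84. PP had no peak there. Its most IP-rich peak lay in the 5′UTR (chr11:2138628-2138752), with 37842 IP and 7186 input reads and a log2 enrichment of 0.86, and WT PP had a peak of log2 enrichment 0.86 in the same place. The 5′UTR stretch of the longest isoform at chr11:2138303-2138827 was marked in PP, hILO and WT PP and had no peak in A5-KO PP. The remaining 5′UTR peaks lay upstream, at chr11:2139203-2139252 in the same isoform and on exons of other isoforms between positions 2140298 and 2149009, and no list shared one with another. In WT PP, 5 of the 8 IGF2 peaks had fewer IP than input reads, although their deposited log2 enrichments, which the peak caller normalizes within each list, were positive. Peaks with fewer IP than input reads made up 7.87% of all WT PP peaks, 8.95% of A5-KO PP peaks and 0.00% of each first-batch list.

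**Figure D2:**
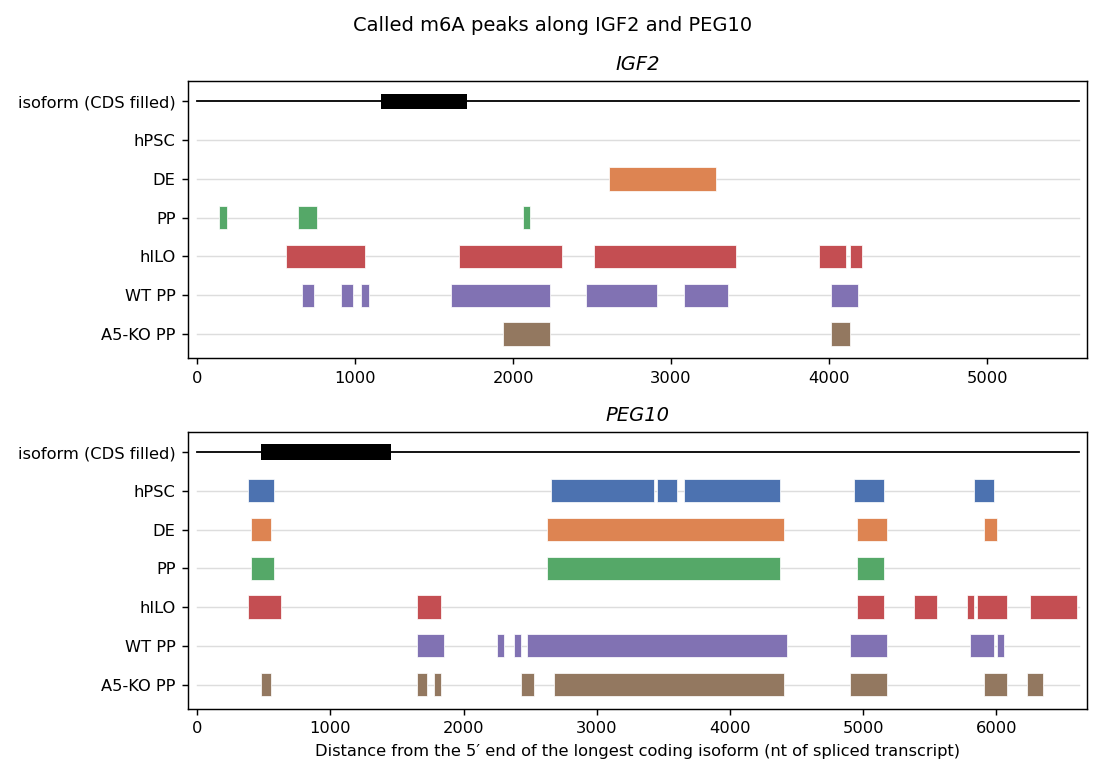
Called peaks along the longest coding isoforms of IGF2 and PEG10, in nt of spliced transcript from the 5′ end, with 1 row per population and the coding sequence as a filled bar; 3 IGF2 peaks on exons of other isoforms are not drawn. IGF2 peaks lay on both sides of the coding sequence and PEG10 peaks mostly in the 3′ part of the transcript.

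In A5-KO PP only 2 IGF2 peaks were called, and their reads moved in opposite directions from WT PP. At the peak next to the stop codon (chr11:2132462-2133086 in WT PP, chr11:2132462-2132761 in A5-KO PP), WT PP had 461529 input and 320306 IP reads, and A5-KO PP had 3963 and 2529. At the distal 3′UTR peak (chr11:2130512-2130686 and chr11:2130562-2130686), WT PP had 142 input and 340 IP reads, and A5-KO PP had 1185 and 7461. On the scale of log2 input RPM per kb, the difference of A5-KO PP minus WT PP was -5.22 at the first and 4.12 at the second, which stood at percentiles 9.17 and 83.1 of 25833 shared peaks. For IP the differences on this scale were -5.29 and 5.57, at percentiles 2.1 and 94.4, so both IP changes lay nearer the ends of the range than the input changes did. The log2 enrichment was 1.59 in WT PP against 2.16 in A5-KO PP at the first peak, a difference of 0.58 ± 0.037 (counting error), and 3.52 and 5.49 at the second, a difference of 1.97 ± 0.15. Input was uneven along the longest isoform within a list too. In WT PP it went from 811 reads per kb in the distal 3′UTR peak to 2486000 in a 50 nt 5′UTR peak. In hILO it went from 99594 to 524921.

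PLAGL1, a zinc finger transcription factor that regulates other imprinted genes, appeared from the progenitor stage on. Its IP level was 239 RPM in PP and 68.4 RPM in hILO, with 113 RPM in WT PP and 16.1 RPM in A5-KO PP, and its input level was 280, 68.9, 44.6 and 31.8. Thus within the first batch it was higher in PP than in hILO, the opposite order to IGF2. PLAGL1 was the main carrier of coding sequence peaks, with 7 of its 15 peaks in the CDS. One CDS stretch (chr6:143941800-143942349) was marked in all 4 of these lists. It held 5257 IP and 1244 input reads in PP, 4240 and 1412 in hILO, 141 and 31 in WT PP, and 288 and 284 in A5-KO PP, with highest log2 enrichments of 1.14, 1.56, 3.85 and 2.13. At the pair shared by PP and hILO the level per kb fell by 2.50 on the log2 scale for input and fell by 2.33 for IP, while the log2 enrichment rose by 0.42. These falls stood at percentiles 16.2 and 17 of all peaks shared by PP and hILO, whose medians were -0.53 and -0.50. With a p below 1e-05 this site was left in 2 lists, PP and hILO. Most of the WT PP level came from the adjoining 50 nt (chr6:143941750-143941799), where 6209 IP and 788 input reads gave a log2 enrichment of 5.33. This window held no DRACH site, and no other list had a peak in it. PP and hILO also shared a 3′UTR peak just after the stop codon, at log2 enrichments of 1.34 and 1.29, and a 5′UTR peak, at 1.18 and 1.31. A spliced 5′UTR peak of an alternative isoform was shared by WT PP and A5-KO PP, at 6.79 and 6.20, and was not called in the first batch. Only 138 of its 175 nt in WT PP and 88 of its 125 nt in A5-KO PP lay on PLAGL1 exons, with 29 and 32 input reads. The gene fields of all PLAGL1 peaks also named HYMAI.

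PEG10, a gene derived from a retrotransposon and needed for placental growth, was the most evenly marked transcript and held 35 of the 105 peaks. Its IP level was 50.6 RPM in hPSC, 48.2 RPM in DE, 80.4 RPM in PP and 68.1 RPM in hILO, with 23.3 RPM in WT PP and 36 RPM in A5-KO PP. Its input level was 52.8, 63.7, 122, 86.6, 64 and 65.3. Hence no population lacked PEG10, and its levels spanned a far narrower range than those of IGF2. The peak at the start of the coding sequence (chr7:94663457-94663706) was present in 5 lists and not in WT PP. Its log2 enrichment was 1.37 in hPSC, 0.64 at the DE stage, 0.61 at the PP stage, 0.92 in hILO and 1.59 in A5-KO PP. With a p below 1e-05 it was left in hPSC alone. A 2000 nt stretch of the 3′UTR (chr7:94665507-94667506) was also marked in 5 lists and not in hILO, with highest log2 enrichments of 2.29 in hPSC, 1.22 at the DE stage, 1.24 at the PP stage, and 5.07 in WT PP against 6.54 in A5-KO PP. The last value is that of a 100 nt peak with 5 input reads. The A5-KO PP peak that paired with the WT PP one (chr7:94665757-94667481) had 112 input reads and a log2 enrichment of 3.64, a difference of -1.43 ± 0.34 (counting error). The last part of the transcript was marked most often in hILO, where 4 peaks started at or after position 94668457. On the longest coding isoform 30 PEG10 peaks lay in the 3′UTR. PEG10 is known to make a longer protein by ribosomal frameshifting, and 7 of these 30 fell inside the CDS of another annotated isoform.

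One PEG10 stretch in the 3′UTR (chr7:94667982-94668256), which holds the second sequence shown above, was marked in all 6 populations. There hPSC had 313 IP and 29 input reads, DE had 482 and 292, PP had 54 and 15, and hILO had 1109 and 473. The log2 enrichments there were 1.96, 1.51, 1.59 and 1.53, a range of less than 1 over 4 stages. In WT PP it had 41 IP reads and in A5-KO PP 23, and neither list had an input read. The deposited log2 enrichment was 9.02 in WT PP against 0.66 in A5-KO PP for the same boundaries, each with a counting error of 2.1. Such values were general in the second batch: among its peaks without input the log2 enrichment ran from 0.62 at the 5th to 11.82 at the 95th percentile in WT PP, and from 0.64 to 12.20 in A5-KO PP. With a p below 1e-05 the stretch was left in 3 lists, hPSC, DE and hILO.

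DLK1, a transmembrane ligand related to the Notch ligands that keeps progenitors undifferentiated, was marked only in the second batch. It had 6 peaks in WT PP against 2 in A5-KO PP, all in the 3′UTR. The IP level was 23.5 RPM in WT PP against 4.36 in A5-KO PP, and the input level 31.9 and 4.01. Per kb of covered exon the IP level was 28.5 and 43.6, since the covered length fell from 825 nt to 100 nt, so the direction depended on the scale. The most IP-rich peak in WT PP (chr14:100737153-100737277) had 502 IP and 281 input reads and a log2 enrichment of 2.86, and the A5-KO PP peak within it had 78 and 29 and a log2 enrichment of 3.60. The difference of 0.75 ± 0.33 (counting error) was under 1. The last A5-KO PP peak (chr14:100737478-100737527) had 90 IP and 22 input reads and a log2 enrichment of 4.26.

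MEST, a protein of the hydrolase fold family, had a single 100 nt 3′UTR peak in A5-KO PP (chr7:130505299-130505398), with 168 IP and 230 input reads and a log2 enrichment of 1.76. Its IP reads were thus fewer than its input reads. PEG3, a zinc finger protein, had 2 peaks in A5-KO PP by the gene field, which also named the neighbouring ZIM2. One of these (chr19:56779394-56779468) had no base on a PEG3 exon, and only 80 nt of the other (chr19:56782249-56810156 with introns) did. They held 610 IP and 735 input reads, and 571 and 243. Which of the overlapping genes these reads came from was not tested.

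CDKN1C, an inhibitor of cyclin-dependent kinases, had a single peak in hILO (chr11:2885596-2885770), in the 5′UTR, with 881 IP and 215 input reads and a log2 enrichment of 1.38. H19, a noncoding RNA of the same chromosome region as IGF2, was without a peak also in hILO and WT PP, where IGF2 was among the genes with the most IP reads in peaks. MEG3, a long noncoding RNA of the DLK1 locus, had 2 peaks in hILO and 4 each in WT PP and A5-KO PP. Its IP level was 5.65 RPM in hILO, 8.34 RPM in WT PP and 5.52 RPM in A5-KO PP. The gene fields of all MEG3 peaks named other transcripts as well, among them MEG8 and MIR493HG, and 1 hILO peak (chr14:100889650-100889724) had no base on a MEG3 exon. None of the 4 MEG3 peaks in A5-KO PP held an input read. The peak shared by both second-batch lists (chr14:100831984-100832208 in WT PP) had 228 IP and 42 input reads in WT PP, and 33 and 0 in A5-KO PP. In hILO the most IP-rich peak (chr14:100860258-100860332) had 267 IP and 56 input reads and a log2 enrichment of 2.19, and no other list had a peak over it.

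GRB10, an adaptor that inhibits insulin and IGF receptor signalling, had a mark in the same place in every population. This was a 3′UTR stretch that began just after the stop codon (chr7:50592338-50592912) and holds the first sequence shown above, whose GGAC site lies 162 nt after the stop codon. There hPSC had 394 IP and 33 input reads, DE had 129 and 102, PP had 213 and 55, and hILO had 2003 and 1140. WT PP had 2730 and 348, and A5-KO PP had 2675 and 782 in 3 peaks. The log2 enrichment was 2.02 in hPSC, 0.72 at the DE stage, 1.42 at the PP stage and 0.97 in hILO, and the highest values in WT PP and A5-KO PP were 5.41 and 4.80. The input RPM over all GRB10 peaks was 4.14, 15.9, 7.87 and 40.1 along the stages from hPSC to hILO, with 29.2 in WT PP against 63.5 in A5-KO PP. These input levels were below those of PEG10 in every population, yet the peak recurred. With a p below 1e-05 it was left in 4 lists, with PP and DE falling out. Outside this stretch GRB10 had 1 peak in DE, 1 in A5-KO PP and 2 in WT PP, each in a place of its own.

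**Figure D3:**
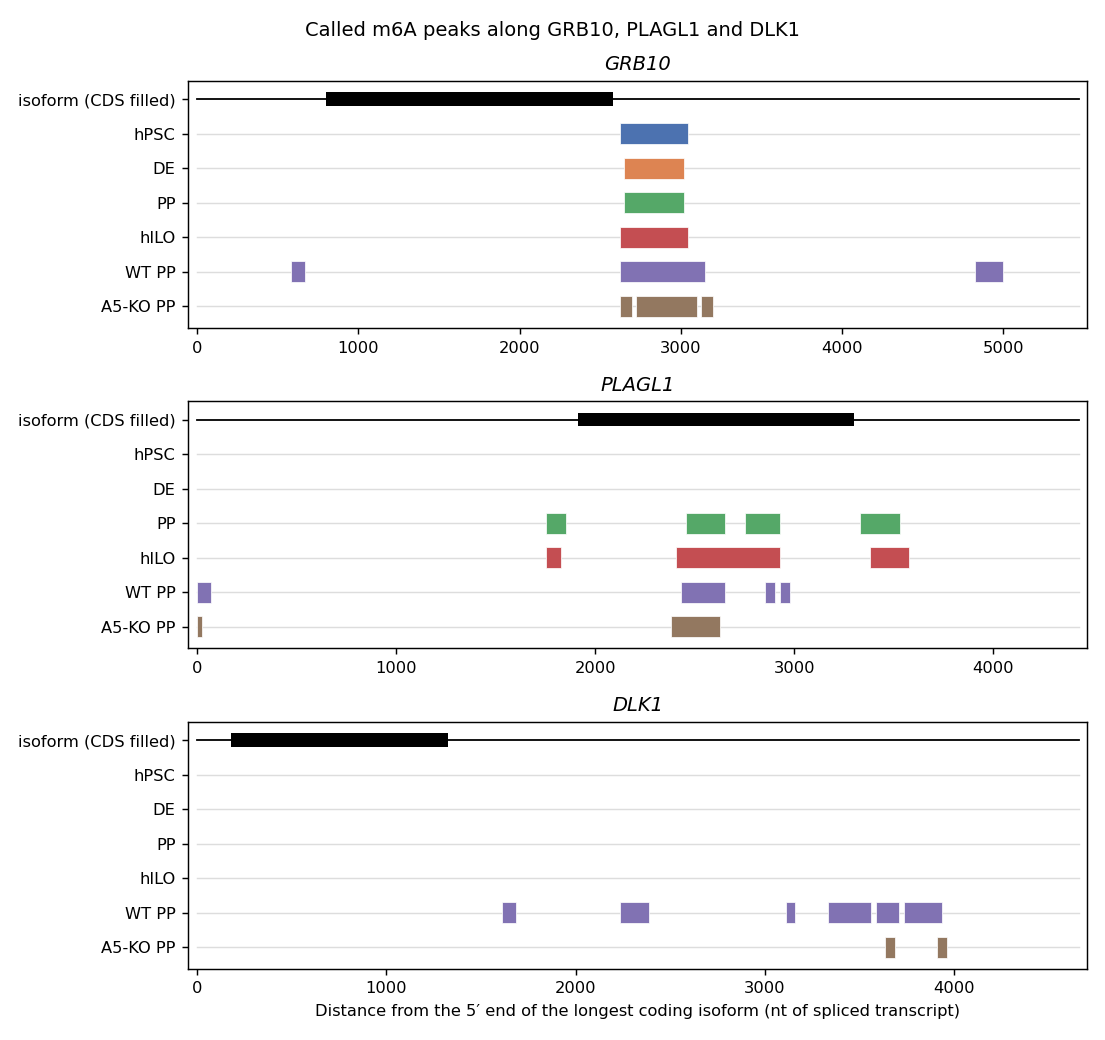
Called peaks along the longest coding isoforms of GRB10, PLAGL1 and DLK1, in nt of spliced transcript from the 5′ end, with 1 row per population and the coding sequence as a filled bar; peaks that lie only on other isoforms are not drawn. GRB10 had a peak after the stop codon in all 6 populations, PLAGL1 had peaks in the CDS in 4, and DLK1 had peaks in WT PP and A5-KO PP, all in the 3′UTR.

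Merging overlapping peaks of the 6 lists gave 48 sites. Of these, 30 had a peak in 1 list, 7 in 2, 4 in 3, 2 in 4, 3 in 5 and 2 in 6, and the sites of at least 4 lists belonged to IGF2, PLAGL1, PEG10 and GRB10. A peak counted as found again when peaks of the earlier list covered more than 50% of its exonic bases on that strand. This held for 5 of the 7 DE peaks (71.4%) against hPSC, where the share over all peaks was 64.7%. It held for 4 of 13 PP peaks (30.8%) against DE, with 57.0% over all peaks, and for 6 of 20 hILO peaks (30%) against PP, with 45.6%. The shares depended on the way of counting. Counted from the earlier list, 57.1% of the DE peaks were found in PP and 69.2% of the PP peaks in hILO, with 46.7% and 60.5% over all peaks, so the order against the background turned in both. When the overlap had to hold for both peaks of a pair, the share of DE peaks found in hPSC was 42.9%, with 47.6% over all peaks. The PP peaks not covered by more than 50% in DE were 4 of IGF2 and 5 of PLAGL1. Those of hILO not covered to this extent in PP were 6 of IGF2, 5 of PEG10, 2 of MEG3 and 1 of CDKN1C. Of these, 2 IGF2 peaks of hILO (chr11:2132387-2133036 and chr11:2138328-2138827) did contain a shorter PP peak. Of the 32 WT PP peaks 6 (18.8%) were found in first-batch PP, with 22.4% over all peaks, and from the PP list 46.2% were found in WT PP, with 57.9% over all peaks.

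For peaks shared between consecutive stages of the first batch the log2 enrichments were compared. A difference of at least 1 was called. From hPSC to DE 1 of 5 pairs was called lower, where 6.90% of all shared peaks were lower and 4.45% higher. This was the GRB10 peak after the stop codon, which went from 2.02 to 0.72, a difference of -1.30 ± 0.32 (counting error). It had 33 input reads in hPSC, and no call was left where both lists had at least 50. From DE to PP none of 4 pairs was called, where 7.35% of all shared peaks were higher and 8.21% lower, and from PP to hILO none of 6, where 4.11% were higher and 13.2% lower. These 10 pairs lay on PEG10, GRB10 and PLAGL1, and their differences ran from -0.46 to 0.70. The difference went beyond the 95% range of its counting error in 3 of 5 pairs from hPSC to DE, 1 of 4 from DE to PP and 3 of 6 from PP to hILO. Input reads at several of these sites changed more than enrichment did. At the PEG10 site of all 6 lists the log2 input RPM per kb fell by 3.17 from DE to PP and rose by 2.86 from PP to hILO, while the log2 enrichment moved by 0.08 and -0.06. These input changes stood at percentiles 6.48 and 89.2 of all shared peaks, whose medians were 0.76 and -0.53.

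Against first-batch PP, 4 of 6 pairs were called higher in WT PP and 0 lower, where 70.3% of all shared peaks were higher and 5.22% lower. The called pairs were 2 of PEG10, 1 of PLAGL1 and 1 of GRB10. One PEG10 pair, at a difference of 7.43 ± 2.1, had no input read in WT PP. A rise was also the rule for peaks of other genes. The IGF2 5′UTR pair was the exception with the most reads, at 0.86 in both.

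To ask how loss of ALKBH5 changed these transcripts, A5-KO PP was compared with WT PP. Of the 26 A5-KO PP peaks 13 (50%) were found in WT PP, where the share over all peaks was 46.8%. With the overlap required of both peaks the share was 26.9%, with 30.6% over all peaks, and 28.1% of the WT PP peaks were found in A5-KO PP, with 50.0% over all peaks. Among the 13 pairs 3 were called higher, where 38.0% of all shared peaks were higher, and 5 lower, where 28.9% were lower. The pairs are not all separate, since a GRB10 peak and a PEG10 peak of WT PP each paired with more than 1 A5-KO PP peak. The median difference was -0.58, against 0.24 over all shared peaks, but it was 0.14 on count ratios, with 5 pairs higher and 3 lower, and -0.02 where both lists had 50 input reads or more, which left 4 pairs. With 13 pairs neither count is read as a result about imprinted growth genes. Several called pairs rested on few reads, with 2 input reads or fewer in A5-KO PP at 4 of them and 8 input reads in WT PP at the PLAGL1 pair. The counts include 3 pairs without an input read in A5-KO PP, at -8.36 and -2.88 for PEG10 and 3.56 for MEG3. The largest rise, 7.45 ± 0.92 for a 50 nt PEG10 peak, had 2 input reads in A5-KO PP. Of those 4 pairs with 50 input reads or more 1 was higher and 1 lower, where the shares over all such pairs were 22.7% and 21.4%. The higher one was the distal 3′UTR peak of IGF2, with a difference of 1.97. The lower one was a short GRB10 peak beside the stop codon (chr7:50592838-50592912), at 3.20 against 5.41 for the WT PP peak that covered it, while the neighbouring larger GRB10 peak differed by only -0.61 ± 0.11. The GRB10 stretch was thus cut into 3 peaks in A5-KO PP, and its central part remained at 4.80.

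**Figure D4:**
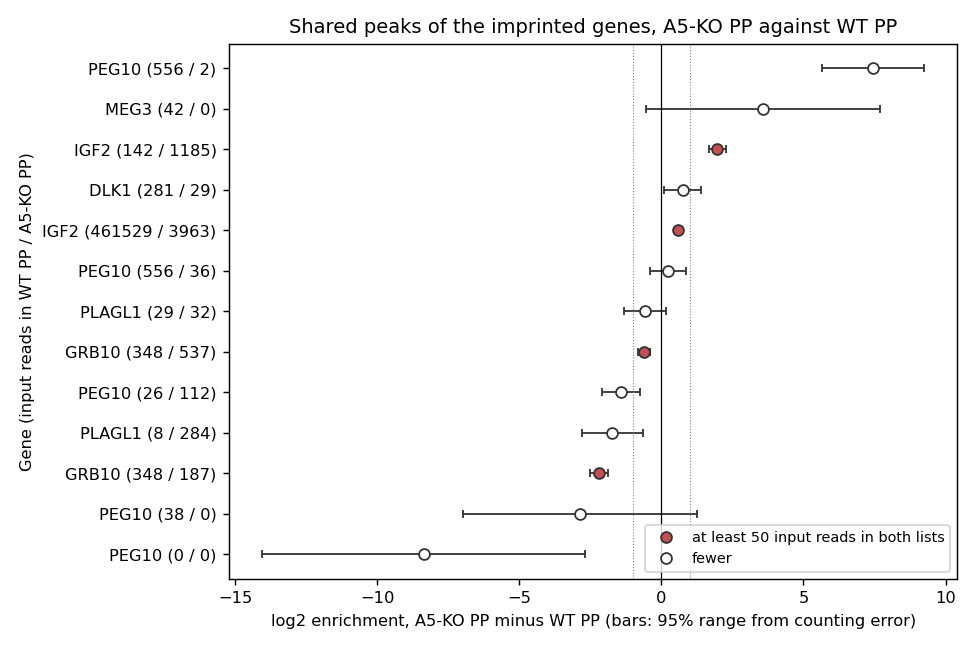
Difference in log2 enrichment of the 13 shared peaks, A5-KO PP minus WT PP, with bars for the 95% range from counting error; the y axis names the gene and its input reads in WT PP and A5-KO PP, and filled points have at least 50 input reads in both. The filled points lie between -2.20 and 1.97, and the widest bars belong to peaks without input reads.

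**Figure D5:**
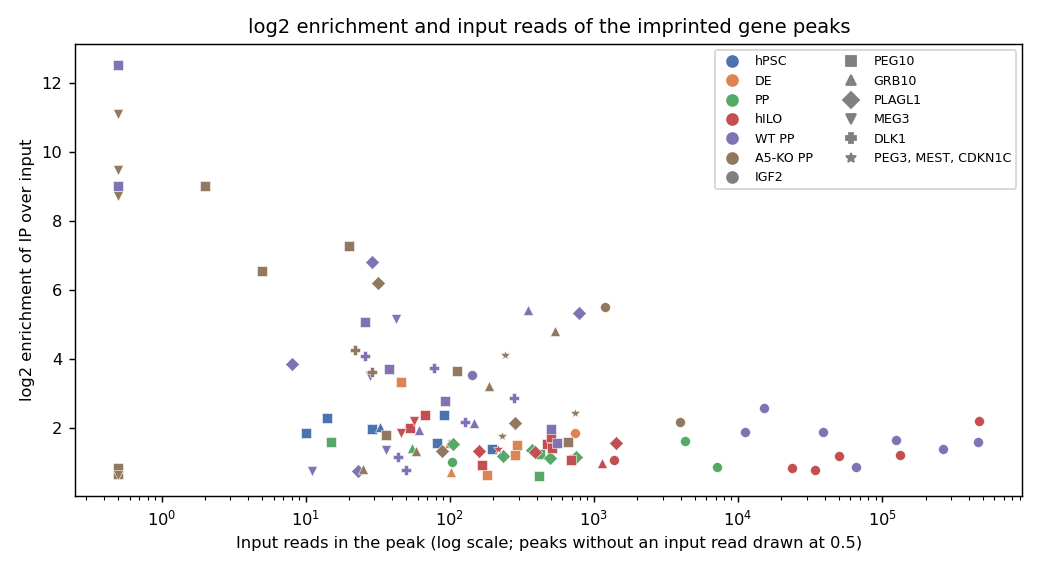
Deposited log2 enrichment against input reads (log axis) for the 105 peaks, coloured by population and shaped by gene, with peaks without an input read drawn at 0.5. Peaks without input spanned 0.64 to 12.53, while the 21 IGF2 peaks spanned 0.77 to 5.49.

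Of 84 peaks that could be placed on the longest coding isoform, 62 were in the 3′UTR (73.8%), 12 in the CDS (14.3%) and 10 in the 5′UTR (11.9%). These peaks repeat sites across lists, and 30 of the 62 were of PEG10. Genes differed in this respect. All 8 DLK1 peaks were in the 3′UTR, IGF2 had none in the CDS, and the 12 CDS peaks were 7 of PLAGL1 and 5 of PEG10. A DRACH site was present in 94 of the 105 peaks, and the share over all peaks ran from 89% in PP to 92.9% in hILO. DRACH was only slightly denser inside the peaks than in the other exons of the same genes, with 19.8 against 17.3 sites per kb, and GGAC, counted whatever its next base, with 4.49 against 3.83. In hILO GGAC was sparser inside than outside, with 3.35 against 4.33 per kb, where the most IP-rich IGF2 peak held 11 DRACH sites and 0 GGAC sites. The 11 peaks without DRACH all came from the second batch. Except for a 225 nt DLK1 peak of WT PP, each of them was 50 nt long. The few 50 nt member peaks of the first batch each held 1 DRACH site. Over all peaks the DRACH share was 90.1% for the WT PP list and 91.4% for A5-KO PP, within the range of the first-batch lists. Whether batch mattered apart from peak length was not tested.

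Other genes of imprinted regions were counted beside the members. Of 34 such genes 19, 22, 18 and 21 had a peak along the stages from hPSC to hILO, 25 did in both WT PP and A5-KO PP, and 15 had one in all 6 lists. These counts are not independent of the members. HYMAI was counted through the PLAGL1 peaks, at 239 IP RPM in PP for both. ZIM2 was counted through the PEG3 peaks, at 30.6 in A5-KO PP, and MEG8 through MEG3 peaks, at 5.65 in hILO. The 4 of these 34 genes with the highest IP RPM summed over the lists, given by rule, were SNRPN, SNURF, KCNQ1OT1 and RTL1. SNRPN, a spliceosome protein gene that shares reads with SNURF, had 1501, 657, 234 and 405 IP RPM from hPSC to hILO, with 181 in WT PP against 184 in A5-KO PP. SNURF had 1039, 276, 66.7 and 150 from hPSC to hILO, and 88.8 and 5.96 in WT PP and A5-KO PP. KCNQ1OT1, a noncoding RNA of the CDKN1C locus, had 1.64, 6.54, 26.7 and 551 from hPSC to hILO, and 174 and 527 in WT PP and A5-KO PP. RTL1, a retrotransposon-derived gene of the DLK1 locus, had 348 in DE, where DLK1 had no peak, 21.3 in hILO, and 196 in WT PP against 692 in A5-KO PP.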

How the data were processed

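Peaks were taken from 6 lists, 1 per population. The authors used fastp for trimming, HISAT2 for alignment to GRCh38 and exomePeak2 for peak calling with the 2 IP and 2 input libraries of a population combined. The authors deposited pooled counts of IP and input reads, a log2 enrichment corrected for GC content, and p-values before and after adjustment. Whether counts are sums or means over libraries is not given in the sources used here. The deposited lists run to an adjusted p-value of 0.05, while the methods name a p limit of 1e-05. Library totals were not used. The planned edgeR model was not fitted for lack of per-library counts.

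Spans were reduced to exons of GENCODE 44 (1-based GRCh38 coordinates) and placed by midpoint on the longest coding isoform. All peaks that a gene field assigned to IGF2, PLAGL1, MEG3 or PEG3 also named other genes. Counting errors used the IP and input counts with 0.5 added and cover counting only. PCR copies are not independent. Shared peaks were paired by most shared bases and called at a log2 difference of 1. Overlap and difference code was tested on simulated data. Every member was described in every list, and for each the peak with the most IP reads was preferred. Members, gene lists and markers were chosen with earlier results of these data known. Python 3.11.15, pandas 2.3.3 and scipy 1.17.1 were used.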

Additional observations from a re-analysis of the deposited data

How the results depend on the processing

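No paired analysis was possible because each peak carries only 1 pooled value per population, so the planned settings without 1 replicate and with a replicate block were not run. Under the alternatives 34 values moved by over 1.5 times for a count or beyond the 95% counting range for other values, a wide limit for few peaks. Among the other 91 the A5-KO PP minus WT PP median still went from -0.58 to -0.02 with at least 50 input reads. The cause of the moves was not tested beyond the fewer peaks that a stricter limit keeps. With an IP/input ratio of at least 3, DE and PP kept 2 member peaks each and hILO kept 6. A p limit of 1e-05 left 15 for WT PP and 13 for A5-KO PP, and a limit of 1e-10 left 1 for hPSC, 3 for DE, 7 for PP, 11 for WT PP and 6 for A5-KO PP. Gene fields that named the member alone left 4 for PP, 9 for hILO, 16 for WT PP and 15 for A5-KO PP. A limit of 50 input reads, chosen after seeing the data, left 3 for hPSC, 19 for WT PP and 12 for A5-KO PP. On centred count ratios the median log2 enrichment of member peaks went from 1.51 to 1.12 in DE, from 1.18 to 1.37 in PP and from 2.38 to 2.89 in WT PP. The A5-KO PP minus WT PP median went from -0.58 to 0.14 on count ratios, with 5 pairs higher and 3 lower, so its sign and the balance of calls turned. Where both lists had 50 input reads or more, 1 was higher and 1 lower, and the GRB10 call from hPSC to DE was lost, leaving 0. With reciprocal overlap 3 were lower, and 26.9% of A5-KO PP peaks were shared. Counted from the earlier list, 69.2% of PP peaks were found in hILO, 28.1% of WT PP peaks in A5-KO PP and 46.2% of PP peaks in WT PP. With the CDS of any coding isoform, also added after seeing the data, 23.8% of placed peaks lay in the CDS. The IGF2 ratio of A5-KO PP to WT PP without scaling was 0.0262 for input and 0.0633 for IP. Depth limits single peaks, with a median of 33 input reads per member peak in hPSC, 34 in A5-KO PP and 85 in WT PP.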

Other observations

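The genes whose IP level was most like that of IGF2 over the 6 populations were ARPC3, MPV17L2 and GNAZ, with Pearson correlations of 0.988, 0.980 and 0.977 on the log2 scale among 11801 genes compared. With IGF2, 11 genes correlated at 0.95 or more. The points share library and depth within a list, and the likeness is a description. In hILO the IP level of ARPC3 was 72.3 RPM against 34257 for IGF2. For MEG3 and DLK1, which had no peak in 3 and 4 of the lists, 149 and 535 genes correlated at 0.95 or more, so no gene stands out. H19 had no peak and was not compared.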
